A study of Sus scrofa with 6 samples.

Results

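The enzymes that write and erase methyl and acetyl groups on histones were examined in single pig oocytes. Members were the genes whose pig symbol begins with KMT, KDM, KAT, HDAC, SIRT, PRMT, EHMT or EZH and a digit, or with SETD. The gene files of 6 oocytes held 65 such genes of 19300 genes in all. They comprised 7 H3K4 methyltransferases, 3 H3K9 methyltransferases, 2 H3K27 methyltransferases, 1 H3K36 methyltransferase, 2 H4K20 methyltransferases, 5 other SET domain proteins, 7 arginine methyltransferases, 16 lysine demethylases, 8 lysine acetyltransferases, 7 zinc-dependent deacetylases and 7 sirtuins. The symbols EHMT1, HDAC1, HDAC4, HDAC7, HDAC8, KMT2D, KMT5C and PRMT2 also met the rule in the symbol table but matched no gene of these files, and they were not analysed here. The comparison was between 3 BCB-negative and 3 BCB-positive oocytes. BCB, brilliant cresyl blue, is a dye that an oocyte can reduce to a colourless form. An oocyte that clears it (BCB-negative) is generally regarded as not yet fully grown, and one that stays blue (BCB-positive) as having finished growth. All 6 oocytes were at the germinal vesicle stage, were taken from follicles of 3 to 6 mm with at least 3 layers of cumulus cells, had cumulus cells and zona pellucida removed, and were lysed singly with no maturation culture. The labels give no breed, age, animal or ovary for any oocyte. Each class therefore stood as 1 sample of 3 cells, and no p-value was computed.

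Histone lysine methylation is set by SET domain enzymes and removed by flavin-dependent or JmjC demethylases, and its effect depends on the residue: methylation of histone H3 at lysine 4 (H3K4) marks active promoters, whereas methylation at H3K9 and H3K27 marks silent chromatin. Acetyltransferases and deacetylases set the balance of acetyl groups, which loosen chromatin, and sirtuins remove acyl groups in a reaction that consumes NAD. In growing mammalian oocytes these marks accumulate while transcription proceeds, and the full-grown germinal vesicle oocyte then falls largely silent and lives on stored messages, and mRNA levels do not measure the rate of synthesis.

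Expected counts summed to between 7122749 and 9238987 per oocyte, and the enzymes took 0.0791% to 0.118% of the summed FPKM (fragments scaled by transcript length and by library depth). BCB-positive oocyte 3 had the most counts, the lowest summed FPKM over all genes and the highest summed FPKM of these enzymes, 789 against 621 to 682 in the other 5 oocytes. It held the highest value of 17 of the 47 enzymes compared (36.2%), and of 32.6% of all genes compared. The zona pellucida genes that define an oocyte were high in every cell: ZP3 was at 5602 to 18993 FPKM, and ZP4 at 4118 to 6518 FPKM. Of 8 oocyte markers, 7 averaged at least 1 FPKM, the exception being NOBOX. Of 12 cumulus and granulosa markers, 7 were listed and 0 averaged 1 FPKM, and FSHR, FOXL2, HAS2, NR5A1 and GJA1 had no row. Their sum was 0.27 to 1.07 FPKM in the BCB-negative cells, against 0.76 to 4.08 FPKM in the BCB-positive cells, led by STAR and INHA. STAR did not overlap between classes, at 0.05 to 0.37 FPKM in the BCB-negative cells, against 0.4 to 1.79 FPKM in the BCB-positive cells. The theca and stroma markers summed to at most 3.33 FPKM, led by DCN with COL3A1 next, the endothelial markers to at most 3.88 FPKM, led by PECAM1 with KDR next, and the blood markers to at most 5.13 FPKM. Among blood markers CD3E did not overlap between classes, at 0.11 to 1.19 FPKM in the BCB-negative cells, against 2.37 to 4.6 FPKM in the BCB-positive cells, while CD14 was at 0 to 1.65 FPKM and PTPRC at 0 in 5 oocytes. The part of these markers in the differences below was not tested.

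Most of the enzymes were expressed at low to moderate level, and a few stood far above the rest of their family. SIRT6, a nuclear deacetylase of histone H3, had the highest mean, 87.2 FPKM, above 88.2% of the 11493 genes that averaged at least 1 FPKM. KAT8, which acetylates lysine 16 of histone H4, followed at 65.1 FPKM, then SETD1A at 43.3, PRMT1 at 40.6, PRMT6 at 38.1 and HDAC2 at 32.8 FPKM. Of the 65 enzymes, 6 averaged at least 30 FPKM, 20 at least 10 FPKM and 47 at least 1 FPKM. The 47 were compared between classes. The other 18 did not reach that mean, and 12 enzymes were under 1 FPKM in every oocyte. Of all 65, 53 were above 0 in each oocyte. FPKM is scaled by transcript length, and across these genes, which share the same libraries and amplification, mean FPKM was hardly related to listed length (Spearman's rho -0.07, n = 65 genes).

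**Figure D1:**
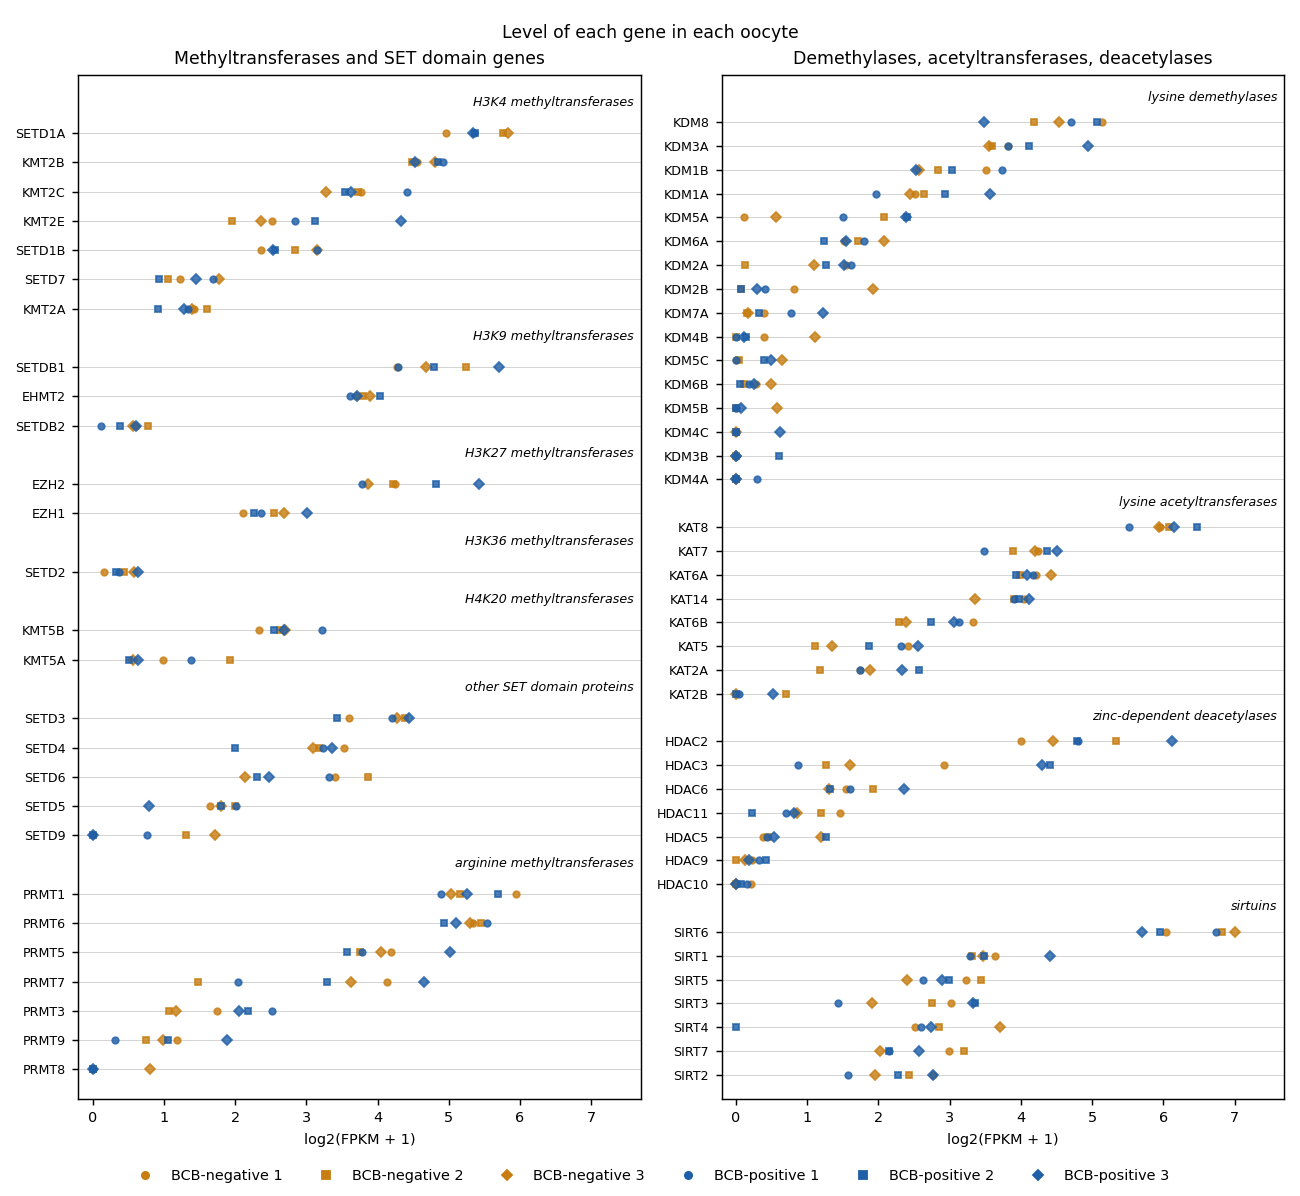
Level of each of the 65 enzymes on the log2(FPKM + 1) scale (x axis), one row per gene grouped by function, with 3 BCB-negative (orange) and 3 BCB-positive (blue) oocytes as separate points. SIRT6 and KAT8 lie furthest to the right, and the demethylases KDM4A, KDM4C and KDM3B lie at 0 in 5 of 6 oocytes.

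Few of the enzymes separated the BCB classes, at a share close to that of all genes. A gene was counted as different where the ranges of the classes did not overlap and the class means of log2(FPKM + 1) were at least 1.5-fold apart. By this rule 3 of 47 enzymes were higher in BCB-positive oocytes, KMT2E, KDM3A and PRMT3, which is 6.38%, against 5.75% of all 11493 genes. None of the 47 was lower, against 2.66% of all genes. Without the limit on size, 3 of 47 were entirely higher, against 7.44% of all genes, and 1, KMT2A, was entirely lower, against 4.03%. The median class difference (BCB-positive minus BCB-negative) was 0.11 on the log2 scale for the enzymes and 0.11 for all genes compared. For 38 of the 47 enzymes the difference was smaller than the SD within classes, pooled over both. Without BCB-positive oocyte 3 the median of the enzymes was -0.09 and that of all genes 0.05. The lower mean was then in BCB-positive oocytes for 26 of 47 enzymes, where it was for 19 with that oocyte. Of all 11493 genes, 5224 had the lower mean in BCB-positive oocytes without it and 4825 with it. With all 6 oocytes 58.0% of all genes had the higher mean in BCB-positive oocytes. With 5 oocytes the rule is easier to meet: 6 enzymes were higher without BCB-negative oocyte 1 (1275 of all 11493 genes), where KAT5, KAT6B and KDM2A joined the 3. The number was 5 without BCB-negative oocyte 2, with HDAC2 and KDM5A added (all genes 8.74%). It was 9 without BCB-positive oocyte 1, with EZH2, HDAC3, KAT2A, KDM1A, KDM5A and SIRT3 added (13.7%), and 2 without BCB-positive oocyte 3 (7.19%). SIRT4 and SIRT6 were lower by the rule without BCB-negative oocyte 1 (all genes 5.53%), SETD6 and SIRT7 without BCB-negative oocyte 3 (4.97%) and SIRT6 without BCB-positive oocyte 1 (6.92%).

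**Figure D2:**
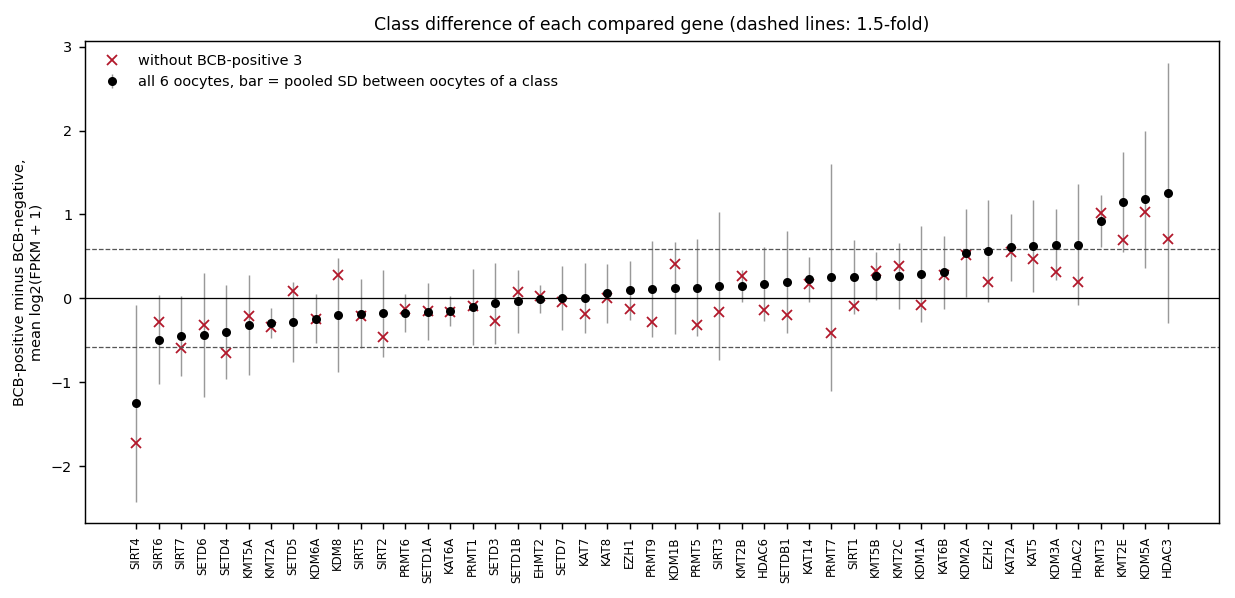
Class difference of each of the 47 compared enzymes on the log2(FPKM + 1) scale (y axis), with all 6 oocytes (black, bar = pooled SD between oocytes of a class) and without BCB-positive oocyte 3 (red crosses); dashed lines mark 1.5-fold. Most points lie within the dashed lines, and the median moved from 0.11 to -0.09 without that oocyte.

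KMT2E had the largest difference of the 3 enzymes that met the rule. It carries a SET domain and a PHD finger that binds methylated H3K4, and is generally held to read that mark rather than write it. KMT2E stood at 4.74, 2.88 and 4.13 FPKM in cells 1, 2 and 3 of the BCB-negative class, against 6.14, 7.7 and 19.1 FPKM in the BCB-positive cells 1, 2 and 3. The classes did not overlap, and BCB-positive oocyte 3 was far above the rest. The log2 difference was 1.15 (SD 0.60), and 0.70 without that oocyte, still past 1.5-fold. Its reads summed to 476 in BCB-negative oocytes (95% exact Poisson interval 434 to 521) and 1562 in BCB-positive oocytes (1485 to 1641). Such intervals cover counting error only, and reads amplified without molecular identifiers are not independent molecules. KMT2E overlaps a protein-coding gene, LOC106504991, in RefSeq (Sscrofa11.1). That gene had no row in these files, so its level is not known and that of KMT2E is uncertain.

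KDM3A, a JmjC demethylase of H3K9, was at 13.13, 11.06 and 10.69 FPKM in the BCB-negative cells, against 13.16, 16.31 and 29.72 FPKM in the BCB-positive cells. The classes were parted by 13.13 against 13.16 FPKM only, and BCB-positive oocyte 3 was again highest. The log2 difference was 0.64 (SD 0.42). It was 0.32 without BCB-positive oocyte 3, 0.54 after scaling by size factors and 0.45 after removal of a linear trend on gene length, and in these 3 settings it was under 1.5-fold.

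PRMT3, an arginine methyltransferase of the cytoplasm that modifies a ribosomal protein, was at 2.35, 1.1 and 1.25 FPKM in the BCB-negative cells, against 4.71, 3.53 and 3.17 FPKM in the BCB-positive cells. All BCB-positive values exceeded the BCB-negative ones, and here BCB-positive oocyte 3 was the lowest of its class. The log2 difference was 0.92 (SD 0.31), and 1.02 without BCB-positive oocyte 3. The level rested on 35.5 reads in the BCB-negative cells, against 96.5 in BCB-positive oocytes. The gene model was a non-coding transcript of 1077 bases, and its 6 values were identical to those of 1 other gene without a symbol. Counts of 8.5 and 37.5 reads, in BCB-negative oocyte 2 and BCB-positive oocyte 1, were not whole. Its reads thus appear to be split with that gene. The values do not tell the genes apart, and PRMT3 is uncertain. The sum of both genes differed by 1.09.

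KMT2A, a founding member of the H3K4 methyltransferase family, was at 1.69, 2.03 and 1.64 FPKM in the BCB-negative cells, against 1.53, 0.89 and 1.43 FPKM in the BCB-positive cells. The classes did not overlap, but the log2 difference of -0.30 (SD 0.18) was under 1.5-fold. HDAC11, the only deacetylase of its class and one that removes fatty acyl groups, was at 1.75, 1.29 and 0.81 FPKM in the BCB-negative cells, against 0.63, 0.17 and 0.75 FPKM in the BCB-positive cells. Its log2 difference was -0.59, but its mean of 0.90 FPKM kept it out of the comparison.

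**Figure D3:**
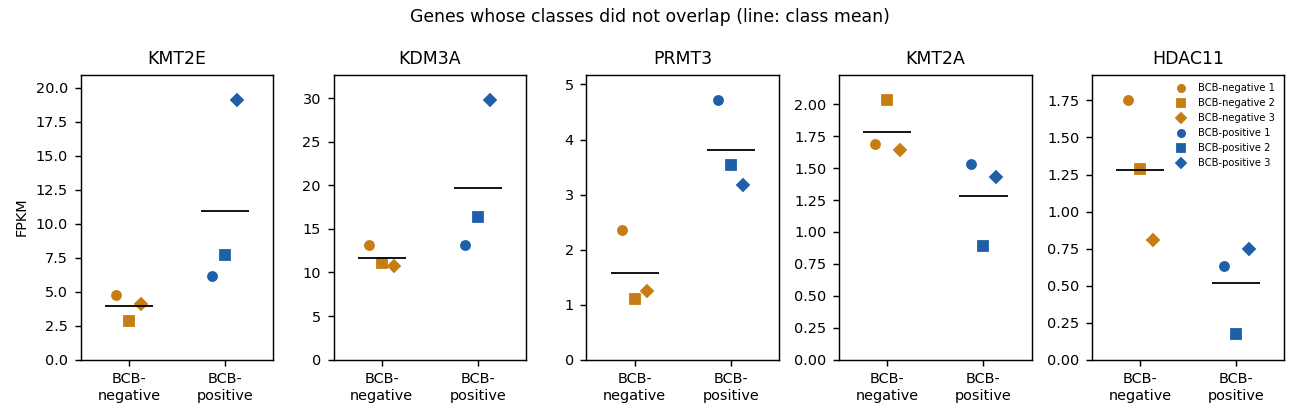
FPKM of KMT2E, KDM3A, PRMT3, KMT2A and HDAC11 in each oocyte (y axis from 0, one panel per gene, line = class mean). KDM3A is parted by 13.13 against 13.16 FPKM, and BCB-positive oocyte 3 is the highest point for KMT2E and KDM3A but not for the other genes.

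Among H3K4 methyltransferases the mRNA was mainly SETD1A and KMT2B. SETD1A, catalytic subunit of a complex that places most trimethylated H3K4, was at 30.2, 53.0 and 56.2 FPKM in the BCB-negative cells, against 40.1, 40.5 and 39.7 FPKM in the BCB-positive cells. The BCB-positive values lay almost together, inside the spread of the BCB-negative ones. SETD1A made up 37.4% to 53.7% of the summed FPKM of the 7 genes of this group. KMT2B, which mouse studies place behind H3K4 trimethylation in growing oocytes, was at 22.5, 21.3 and 26.95 FPKM in the BCB-negative cells, against 29.1, 27.9 and 22.0 FPKM in the BCB-positive cells. Its highest and lowest oocytes were 1.37-fold apart, the narrowest range, with that of EHMT2, among the 33 enzymes that averaged at least 5 FPKM. KMT2C, an enhancer methyltransferase, averaged 11.2 FPKM in the BCB-negative cells, against 14.1 FPKM in the BCB-positive cells and overlapped between classes (difference 0.27, SD 0.39). SETD1B averaged 5.96 FPKM over all oocytes. SETD7, which adds a single methyl group to H3K4 and to other proteins, averaged 1.62 FPKM, and KMT2A had the lowest mean of the group, 1.54 FPKM. In this group 1 of 7 genes was higher by the rule, KMT2E, and 0 were lower (all genes 5.75% and 2.66%).

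Of the 3 H3K9 methyltransferases among the members, SETDB1, which silences retrotransposons, was the most abundant at 18.4, 36.8 and 24.6 FPKM in the BCB-negative cells, against 18.5, 26.6 and 51.2 FPKM in the BCB-positive cells. The classes overlapped throughout (difference 0.19, SD 0.61). SETDB1 overlaps CERS2 in RefSeq (Sscrofa11.1), which stood at 97.8 to 170 FPKM, and whether counting used strand is not given in the sources used here, so its level is uncertain. EHMT2, the G9a enzyme of euchromatin, was the steadiest of the 33 enzymes with at least 5 FPKM, at 12.0, 12.9 and 13.9 FPKM in the BCB-negative cells, against 11.3, 15.4 and 12.1 FPKM in the BCB-positive cells, with a difference of -0.01 (SD 0.17). SETDB2 was at 0.08 to 0.71 FPKM and was not compared. It overlaps CAB39L, at 0.64 to 3.15 FPKM, and is uncertain too.

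EZH2, the catalytic subunit of Polycomb repressive complex 2 in dividing cells, was at 17.9, 17.6 and 13.6 FPKM in the BCB-negative cells, against 12.7, 27.3 and 42.0 FPKM in the BCB-positive cells. BCB-positive oocyte 1 was the lowest of all and oocytes 2 and 3 the highest, so the classes overlapped (difference 0.57, SD 0.61, and 0.19 without BCB-positive oocyte 3). Its paralogue EZH1 averaged 4.77 FPKM and differed by 0.10 (SD 0.35). SETD2, the enzyme that trimethylates H3K36 behind RNA polymerase, was at 0.12 to 0.55 FPKM over a gene model of 8049 bases, with 57 reads in the BCB-negative cells, against 76 in BCB-positive oocytes. KMT5B, which adds further methyl groups to H4K20, averaged 5.56 FPKM (difference 0.27, SD 0.29), and KMT5A, which adds the first, averaged 1.14 FPKM.

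The remaining SET domain genes act mostly on proteins other than histones or have no settled substrate. SETD3, which methylates actin, averaged 16.2 FPKM, SETD4 7.80 FPKM and SETD6, which methylates a subunit of NF-kappaB, 7.34 FPKM. SETD5 averaged 2.31 FPKM. All 4 had the lower mean in BCB-positive oocytes, by -0.44 to -0.06, with overlap between classes in each case, and without BCB-positive oocyte 3 SETD5 differed by 0.09. Of all 11493 genes compared, 4825 had the lower mean in BCB-positive oocytes. SETD6 was at 9.58, 13.5 and 3.42 FPKM in the BCB-negative cells, against 8.97, 3.95 and 4.57 FPKM in the BCB-positive cells, so each class held both high and low cells. SETD9 was at 0 in 3 oocytes, 1 of them BCB-negative, and 2.29 FPKM at most. A count of 3 reads would have given 0.25 to 0.303 FPKM in those oocytes.

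Arginine methyltransferases were led by PRMT1 and PRMT6. PRMT1, the main source of asymmetric dimethylarginine, was at 60.6, 34.9 and 31.8 FPKM in the BCB-negative cells, against 28.6, 50.6 and 37.3 FPKM in the BCB-positive cells. A single oocyte of each class was above 50 FPKM, and the classes overlapped (difference -0.10, SD 0.45). PRMT6, which methylates arginine 2 of histone H3 and so opposes H3K4 trimethylation, was at 38.4 to 42.7 FPKM in the BCB-negative cells, against 29.5 to 45.2 FPKM in the BCB-positive cells (difference -0.18, SD 0.23). PRMT5, which makes symmetric dimethylarginine, averaged 16.7 FPKM, with 31.4 FPKM in BCB-positive oocyte 3 and at most 17.3 FPKM elsewhere. PRMT7 was among the most variable, at 16.6, 1.80 and 11.3 FPKM in the BCB-negative cells, against 3.13, 8.82 and 24.2 FPKM in the BCB-positive cells. High and low oocytes occurred in both classes, and its SD of 1.36 exceeded its difference of 0.25. The PRMT7 model was only 793 bases long. PRMT9 averaged 1.16 FPKM, and PRMT8 had 0.74 FPKM in BCB-negative oocyte 3 and 0 in the other 5 oocytes, where 3 reads would have given at most 0.207 FPKM. Of the 6 compared, 1 was higher by the rule, PRMT3 (all genes 5.75%).

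Lysine demethylases had the most members of low level: 6 of 16 were under 1 FPKM in every oocyte, and 7 of 16 averaged 1 FPKM or more. The most abundant was KDM8, a JmjC protein whose activity as a histone demethylase is disputed. KDM8 was at 34.2, 17.1 and 22.2 FPKM in the BCB-negative cells, against 25.1, 32.7 and 10.21 FPKM in the BCB-positive cells, with overlap (difference -0.19, SD 0.68, and 0.27 without BCB-positive oocyte 3). KDM3A came second and is described above. KDM1B, the flavin-dependent H3K4 demethylase that mouse oocytes need to set maternal imprints, was at 10.4, 6.11 and 4.95 FPKM in the BCB-negative cells, against 12.3, 7.17 and 4.74 FPKM in the BCB-positive cells. The values of both classes covered the same range, and the difference was 0.12 (SD 0.55). KDM1B overlaps DEK in the annotation, at 9.97 to 19.1 FPKM, and is therefore uncertain. KDM1A, its paralogue and the demethylase of the CoREST complex, was at 4.71, 5.22 and 4.44 FPKM in the BCB-negative cells, against 2.89, 6.65 and 10.8 FPKM in the BCB-positive cells. BCB-positive oocytes again lay on both sides of the BCB-negative ones.

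KDM5A, an H3K4 demethylase, had a large but overlapping difference of 1.18 (SD 0.81). It was at 0.08, 3.21 and 0.48 FPKM in the BCB-negative cells, against 1.82, 4.28 and 4.24 FPKM in the BCB-positive cells, so that BCB-negative oocyte 2 stood among the BCB-positive values. Its reads numbered 50 in the BCB-negative cells, against 155 in BCB-positive oocytes over a model of 1813 bases. A long non-coding gene that overlaps KDM5A was at 0 to 4.84 FPKM, so its level is uncertain. KDM2A, which demethylates H3K36, was at 0.09 FPKM in BCB-negative oocyte 2 and 1.13 to 2.05 FPKM in the other oocytes. KDM6A, an X-linked H3K27 demethylase, averaged 2.19 FPKM and differed by -0.24 (SD 0.29), while its paralogue KDM6B did not exceed 0.40 FPKM. KDM7A was at 0.11 to 1.34 FPKM, KDM2B at 0.05 to 2.80 FPKM, KDM5C at 0 to 0.57 FPKM, KDM4B at 0 to 1.16 FPKM and KDM5B at 0 to 0.49 FPKM. The H3K9 demethylases KDM3B, KDM4A and KDM4C each had reads in a single BCB-positive oocyte. KDM3B had 25 reads and 0.52 FPKM in BCB-positive oocyte 2, where 3 reads would have given at most 0.0718 FPKM in the others. KDM4A rested on 5 reads over a non-coding model, and KDM4C on 3 reads over a model of 660 bases.

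Summed by residue over the members, writer mRNA exceeded eraser mRNA for H3K4 and H3K27 in all 6 oocytes. For H3K9 this held only with SETDB1, whose level is uncertain, among the member writers. For H3K4 the summed FPKM of 5 writers (KMT2A to KMT2C, SETD1A and SETD1B) was 4.69, 6.5 and 9.27 times that of 5 erasers in BCB-negative oocytes and 5.81, 4.61 and 3.91 times in BCB-positive oocytes. The classes overlapped, with class means of the log2 ratio of 2.71 and 2.24. For H3K9, 3 writers stood 2.30, 4.56 and 3.29 times above 5 erasers in BCB-negative oocytes and 2.23, 2.5 and 2.10 times in BCB-positive oocytes. BCB-negative oocyte 1, at 2.30, lay between the BCB-positive values. SETDB1 made up 59.4% to 80.2% of these writer sums. Without it, in an alternative added after the values were seen, the ratios were 0.934, 1.23 and 1.21 in the BCB-negative class and 0.848, 0.927 and 0.417 in the BCB-positive class. The 2 writers left, EHMT2 and SETDB2, were then below the erasers in 4 of 6 oocytes, and the classes were parted by 0.934 against 0.927. The eraser sums were mostly KDM3A, from 10.69 of 11.85 FPKM in BCB-negative oocyte 3 to all of 11.06 FPKM in BCB-negative oocyte 2. This parting is therefore not independent of that of KDM3A, described above. For H3K27, EZH1 and EZH2 together were 10.3, 9.53 and 5.23 times KDM6A and KDM6B in BCB-negative oocytes and 6.43, 22.4 and 23.1 times in BCB-positive oocytes. BCB-positive oocytes 2 and 3 thus had the highest ratios and oocyte 1 a ratio within the BCB-negative range. These sums cover listed writers and erasers with a row, and the writers KMT2D and EHMT1 are not among them. The demethylase KDM7A has a row but was in no eraser list. It was at 0.11 to 1.34 FPKM, where the H3K27 erasers summed to 1.39 to 3.64 FPKM, and ratios with it were not computed. The H3K9 methyltransferase SUV39H2, outside the symbol rule, is not among the writers either. At 100.5 to 131 FPKM it alone was above the H3K9 eraser sums of 11.06 to 30.34 FPKM. The demethylases PHF8, PHF2 and JMJD1C, also outside the rule, averaged 2.33, 0.368 and 0.317 FPKM.

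**Figure D4:**
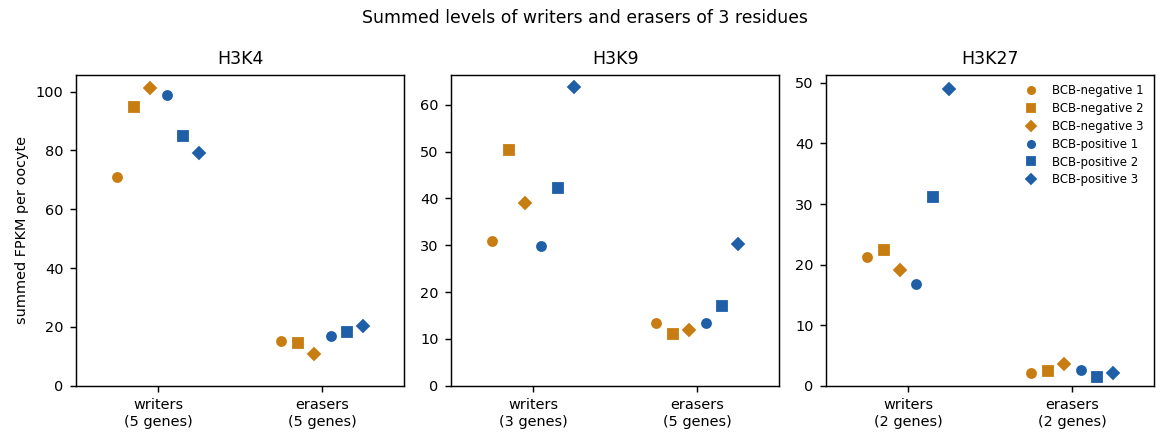
Summed FPKM of writers and erasers of H3K4, H3K9 and H3K27 in each oocyte (y axes from 0, one panel per residue, orange BCB-negative, blue BCB-positive). Writers lie above erasers in all 6 oocytes, for H3K9 with SETDB1 included and SUV39H2 not. For H3K27 the ratio reaches 22.4 and 23.1 in BCB-positive oocytes 2 and 3.

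Among the 8 KAT genes KAT8 had the highest level, at 60.8, 66.4 and 60.5 FPKM in the BCB-negative cells, against 44.7, 88.2 and 69.9 FPKM in the BCB-positive cells. The BCB-negative oocytes were close together and the BCB-positive ones lay on both sides of them (difference 0.06, SD 0.35). KAT8 accounted for 44.8% to 58.8% of their summed FPKM. KAT7, which acetylates H3K14 and H4 at replication origins, averaged 16.8 FPKM and differed by 0.00 (SD 0.41). KAT6A, an H3K23 acetyltransferase, averaged 16.7 FPKM and differed by -0.15 (SD 0.18), with all oocytes between 14.3 and 20.6 FPKM. KAT14, of the ATAC complex, averaged 14.0 FPKM (difference 0.23, SD 0.27) and KAT6B 6.32 FPKM (difference 0.31, SD 0.43). KAT5, the TIP60 enzyme of DNA repair, was at 4.34, 1.16 and 1.54 FPKM in the BCB-negative cells, against 4.0, 2.65 and 4.87 FPKM in the BCB-positive cells. BCB-negative oocyte 1 lay among the BCB-positive values (difference 0.62, SD 0.55). KAT5 overlaps RNASEH2C in the annotation, at 143 to 578 FPKM, and is uncertain. KAT2A, the GCN5 enzyme of the SAGA complex, was at 2.35, 1.26 and 2.70 FPKM in the BCB-negative cells, against 2.33, 4.91 and 4.04 FPKM in the BCB-positive cells (difference 0.61, SD 0.40), and BCB-positive oocyte 1 lay within the BCB-negative range. KAT2B was 0 in 3 oocytes and 0.63 FPKM at most. Of the 7 compared, 6 had the higher mean in BCB-positive oocytes, 5 of 7 without BCB-positive oocyte 3, and 0 met the rule in either direction. Of all 11493 genes, 6668 had the higher mean with that oocyte and 6265 without it.

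Among zinc-dependent deacetylases, HDAC2 carried most of the mRNA, 52.9% to 87.0% of the summed FPKM of the 7 genes with a row. HDAC2, of the SIN3, NuRD and CoREST corepressors, was at 15.0, 39.2 and 20.9 FPKM in the BCB-negative cells, against 26.8, 26.6 and 68.6 FPKM in the BCB-positive cells. BCB-negative oocyte 2 lay above BCB-positive oocytes 1 and 2 (difference 0.64, SD 0.72, and 0.20 without BCB-positive oocyte 3). HDAC3, the deacetylase of the NCOR complex, was the most variable of the 33 enzymes with at least 5 FPKM (SD 1.55). It was at 6.59, 1.41 and 2.03 FPKM in the BCB-negative cells, against 0.82, 20.2 and 18.6 FPKM in the BCB-positive cells. The lowest value and the highest values were all in BCB-positive oocytes, so its difference of 1.26, the largest of the 47, did not separate the classes. HDAC3 read counts were 12 in the lowest oocyte and summed to 140 in the BCB-negative cells, against 639 in BCB-positive oocytes. HDAC6, which deacetylates tubulin in the cytoplasm, averaged 2.31 FPKM. HDAC5, HDAC9 and HDAC10 averaged 0.693, 0.165 and 0.0533 FPKM and were not compared. All 3 compared deacetylases had the higher mean in BCB-positive oocytes, 2 of 3 without BCB-positive oocyte 3 (all genes 6668 and 6265 of 11493).

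Sirtuins held 52.7% to 86.0% of the summed FPKM of the 14 deacetylases with a row. SIRT6 was at 64.5, 113 and 128 FPKM in the BCB-negative cells, against 106, 60.9 and 50.9 FPKM in the BCB-positive cells. The highest 2 values were BCB-negative and the lowest 2 BCB-positive, and BCB-negative oocyte 1 and BCB-positive oocyte 1 crossed over (difference -0.49, SD 0.53, and -0.28 without BCB-positive oocyte 3). SIRT1, which deacetylates histones and transcription factors, averaged 11.6 FPKM, with 20.3 FPKM in BCB-positive oocyte 3 and 8.77 to 11.5 FPKM in the other oocytes. SIRT5, a mitochondrial desuccinylase, averaged 6.84 FPKM and SIRT3, the main mitochondrial deacetylase, 5.92 FPKM. SIRT3 was at 1.69 FPKM in BCB-positive oocyte 1 and above 9 FPKM in the BCB-positive cells 2 and 3. SIRT4, another mitochondrial sirtuin, was at 4.73, 6.20 and 12.1 FPKM in the BCB-negative cells, against 5.03, 0 and 5.69 FPKM in the BCB-positive cells. It was missing from BCB-positive oocyte 2 alone, where 3 reads would have given 0.222 FPKM. Its difference was -1.25 (SD 1.17). SIRT7, of the nucleolus, and SIRT2, of the cytoplasm, averaged 5.01 and 4.11 FPKM and differed by -0.45 (SD 0.48) and -0.18 (SD 0.51). In all, 5 of 7 sirtuins had the lower mean in BCB-positive oocytes, and 7 of 7 without BCB-positive oocyte 3. Of all 47 enzymes compared, 19 had the lower mean with that oocyte and 26 without it. Of all 11493 genes the numbers were 4825 and 5224. The median difference of the sirtuins was -0.18 with that oocyte and -0.28 without it. Each was smaller than their median SD between oocytes of 0.51, and 0 of the 7 met the rule.

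Paralogues were present at unequal mRNA levels, and in most pairs the same member led in every oocyte. Of 17 pairs listed, 12 had a row for both genes, and in 8 of the 12 the sign of the log2 ratio was the same in all 6 oocytes. SETDB1 exceeded SETDB2 by 4.32 (SD 0.47, n = 6 oocytes) on the log2 scale, KDM3A exceeded KDM3B by 3.87 (SD 0.54), and SETD1A exceeded SETD1B by 2.67 (SD 0.25). KAT2A led KAT2B by 1.70 (SD 0.68), KDM6A led KDM6B by 1.42 (SD 0.21) and KAT6A led KAT6B by 1.31 (SD 0.46). The pairs EZH1/EZH2 and KMT2A/KMT2B went the other way, with ratios of -1.89 (SD 0.56) and -3.36 (SD 0.37). The ratio of KMT2A to KMT2B lay between -3.93 and -2.88 in all oocytes. KDM1A and KDM1B did not keep an order: KDM1B was higher in 5 oocytes and KDM1A in BCB-positive oocyte 3. KDM2A led KDM2B in 5 of 6 oocytes and KDM5A led KDM5B in 5 of 6, BCB-negative oocyte 3 being the exception in both, and KDM4A and KDM4C were both near 0. Of the 12 pairs, KDM2A/KDM2B was the 1 whose ratio did not overlap between classes. The share over other gene pairs was not computed. Of all single genes compared, 7.44% were entirely higher and 4.03% entirely lower. The KDM2A/KDM2B ratio was 0.74, 0.05 and -0.84 in the BCB-negative class and 1.20, 1.20 and 1.21 in the BCB-positive class. The difference was 1.22. In BCB-positive cells 1, 2 and 3 KDM2B was at 0.33, 0.05 and 0.23 FPKM, under the pseudocount of 1 FPKM. The closeness of those 3 ratios therefore depends on the pseudocount. KDM2B rested on 70.35 reads in all BCB-negative and 13.77 in all BCB-positive oocytes. The size of a ratio depends on the pseudocount where the lower gene is near 0. With 0.1 FPKM in place of 1 FPKM the ratios of 7 pairs moved beyond their SD: KDM3A/KDM3B was 6.77, SETDB1/SETDB2 5.82, KAT2A/KAT2B 3.86, KDM5A/KDM5B 3.41, KDM6A/KDM6B 3.12, KDM2A/KDM2B 1.43 and KMT2A/KMT2B -3.96. The signs of the 8 could not change, since a pseudocount does not alter which gene is higher.

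**Figure D5:**
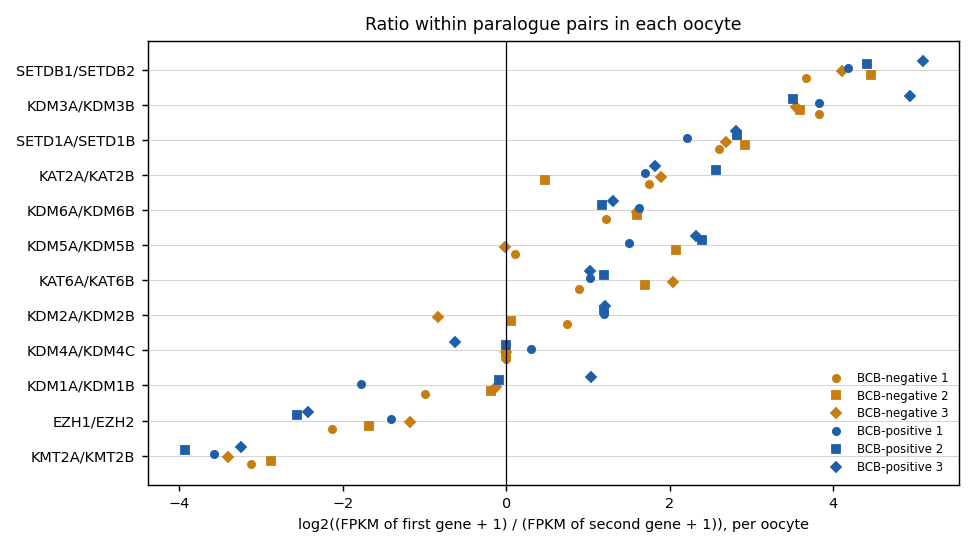
Log2 ratio of FPKM + 1 between paralogues (x axis) in each oocyte for 12 pairs (rows), with BCB-negative in orange and BCB-positive in blue. SETDB1/SETDB2 averages 4.32 and KMT2A/KMT2B -3.36, and the points of both classes are interspersed or adjacent in most rows.

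Transcript use was examined where a gene had several listed transcripts. This held for 18 enzymes, of which 7 had at least 5 FPKM in every oocyte. None of the 7 showed a leading transcript whose share differed by at least 20 percentage points with no overlap between classes. SETD3 came nearest: its leading transcript of 2724 bases took 100% in all BCB-negative oocytes and 80.5%, 83.4% and 79.1% in BCB-positive oocytes, a difference of -19.0 percentage points. Its other transcript, of 2799 bases, was thus listed in BCB-positive oocytes alone, and SETD3 itself did not differ (-0.06, SD 0.48). KDM3A switched within a class: the transcript of 4488 bases took 100% in BCB-negative oocytes and BCB-positive oocyte 3, 72.3% in BCB-positive oocyte 2 and 0.380% in BCB-positive oocyte 1. EZH2 did so in 1 BCB-negative oocyte, where its leading transcript took 29.0%, against 97.5% to 100% elsewhere. EHMT2 used its leading transcript for 91.7% to 98.8% in 4 oocytes and for 32.0% and 43.4% in BCB-positive oocytes 1 and 3. The leading transcript of KAT7 ranged from 15.6% to 94.0%, while PRMT5 and KAT14 held 98.3% and 88.7% or more in all oocytes. These shares are estimates from reads that transcripts have in common, and their error is not given in the files.

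The partners of these enzymes were taken from 8 lists of genes that act with them. Over the 8 lists 6 of 91 compared genes were higher (6.59%, against 5.75% of all genes) and 1 was lower (1.1%, against 2.66%). The median difference over all genes was 0.11, and 0.05 without BCB-positive oocyte 3. Of 12 other histone lysine methyltransferases, 8 were compared, with a median difference of 0.07, and 1 was higher by the rule and 0 were lower. That gene was NSD3, an H3K36 methyltransferase, at 0.63 to 0.88 FPKM in the BCB-negative cells, against 1.08 to 3.76 FPKM in the BCB-positive cells (difference 0.89, SD 0.43). SUV39H2, an H3K9 methyltransferase of heterochromatin, was far above the members of its activity, at 100.5 to 131 FPKM, and differed by 0.09 (SD 0.17). Of 10 other acetyltransferases and demethylases compared (median -0.03, and 0.04 without BCB-positive oocyte 3), 1 was higher and 0 lower. HAT1, which acetylates new histone H4 before deposition, was at 102, 109 and 72.1 FPKM in the BCB-negative cells, against 125, 152 and 334 FPKM in the BCB-positive cells. BCB-positive oocyte 3 was highest by far, and the HAT1 difference of 0.99 (SD 0.57) was 0.57 without it, under 1.5-fold. The acetyltransferase CREBBP was at 4.66, 5.02 and 9.13 FPKM in the BCB-negative cells 2 and 3 and BCB-positive oocyte 1 and listed at 0 in the other 3, a pattern picked out after its values were seen.

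In Polycomb repressive complex 2, 1 of 7 compared partners (median 0.59, and 0.37 without BCB-positive oocyte 3) was higher and 0 were lower. This was the histone chaperone RBBP4, by 0.69 (SD 0.44), and 0.39 with BCB-positive oocyte 3 left out. EED and SUZ12, which EZH2 needs for activity, were low, at means of 0.207 and 1.1 FPKM, both named after their values were seen. COMPASS partners, which assemble with KMT2 and SETD1 enzymes, had 0 of 11 higher and 0 lower (median 0.34, and 0.04 without BCB-positive oocyte 3). DPY30 and ASH2L were the most abundant at 254 and 195 FPKM, and ASH2L differed by 0.02 (SD 0.18). Of 17 compared acetyltransferase partners (median 0.14), 1 was higher, ING3 of the KAT5 complex by 0.78 (SD 0.47), and 0.55 with BCB-positive oocyte 3 left out, and 0 were lower. Among 16 compared corepressor partners (median 0.18), 0 were higher and 1 was lower, SIN3B, a scaffold for HDAC2. SIN3B was at 6.79, 10.1 and 7.71 FPKM in the BCB-negative cells, against 5.91, 3.33 and 5.58 FPKM in the BCB-positive cells, a difference of -0.64 (SD 0.32) and of -0.73 without BCB-positive oocyte 3.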

How the data were processed

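Poly(A) RNA of single oocytes was primed with a poly(dT) tail of 24 nt and amplified by PCR, per the labels' protocols. BWA, Cufflinks, RSEM and the pig build Sscrofa10.2 are named in the submitters' processing notes, without role or version. The authors deposited, per gene and transcript, an estimated count of the fragments assigned to it, with fragments split between transcripts. The deposited FPKM is that estimate divided by length and library depth, given to 2 decimals. The length column deposited by the authors is in bases. A gene missing from an oocyte was set to 0. Symbols came from gene IDs in the RefSeq table of Sscrofa11.1, which matched 13936 of 19300 genes; its coordinates served only to find genes that overlap each other.

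Differences were computed with Python 3.11.15, pandas 2.3.3 and numpy 2.4.6 as BCB-positive minus BCB-negative means of log2(FPKM + 1), over genes that averaged 1 FPKM or more. This scale understates differences of low genes. SD is pooled over 3 oocytes per class. The ordering rule was checked on artificial counts. Members, lists and rules were chosen with earlier results of these data known. Genes named were those without class overlap, the 3 highest and the lowest of each group, the 4 most variable, pairs, and differing or leading partners; other members named were chosen after their values were seen. Alternatives were another pseudocount, scalings, filters, a length trend and leaving out each oocyte. The result for 1 partner gene is not reported here.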

Additional observations from a re-analysis of the deposited data

How the results depend on the processing

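KMT2E and PRMT3 met the 1.5-fold rule in each of the 14 alternatives that compared them, except that PRMT3 dropped out at a mean of at least 5 FPKM, where 33 enzymes were compared. KDM3A met it in all but the size factor, length trend and BCB-positive oocyte 3 settings. With no filter 1 of 65 enzymes was lower by the rule (1.54%, against 1.9% of all genes), namely HDAC11. With HDAC11 added, 2 were entirely lower (3.08%, against 3.02%). With FPKM rescaled to a common sum, or with a mean of at least 5 FPKM, 0 were entirely lower (all genes 3.11% and 4.4%). With 1 oocyte left out, enzymes higher by the rule numbered 2 to 9 of 47, and lower 0 to 2. Of all 11493 genes, 826 to 1574 were then higher by the rule and 506 to 795 lower. Entirely higher enzymes numbered 3 to 11 (all genes 1323 to 1979) and entirely lower ones 1 to 4 (all genes 857 to 1169). The 11 occurred without BCB-positive oocyte 1, where 23.4% of the enzymes were entirely higher, against 17.2% of all genes. The median of the enzymes ranged from -0.09 to 0.18. It was 0.03 under size factors (all genes 0.02), 0.18 with a common sum (all genes 0.19) and -0.06 with a length trend removed (all genes -0.02). The mean log2 ratio of writers to erasers stayed within 1 SD in 8 alternatives for each residue. For H3K9, however, it turned from 1.44 to -0.19 without SETDB1, an alternative added after seeing the data. SUV39H2, outside the symbol rule, was not among the writers in any setting. No paired analysis was possible because no animal is named and no test between classes was made. Low read counts limit PRMT3, KDM5A and all enzymes under 1 FPKM, and short or partial gene models limit PRMT3, PRMT7 and KDM4C. PRMT3 is also limited by values identical to those of another gene, in every setting. Overlaps with protein-coding genes that had no row limit KMT2E, PRMT7, KDM2B, KDM6B and KAT14.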

Other observations

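Readers of the same marks and suppliers of the donor molecules had mRNA levels that in some cases exceeded those of the enzymes. Readers of methylated or acetylated histones had a median difference of 0.20 over 11 compared genes (0.10 without BCB-positive oocyte 3), against 0.11 over all genes. The most abundant was CBX8, a Polycomb protein, at 87.5 to 148 FPKM, which differed by -0.30 (SD 0.26). Among 11 compared genes of methyl and acetyl donor supply (median 0.11, and -0.09 without BCB-positive oocyte 3), 1 was higher, AHCYL1, a relative of the enzyme that clears the product of methylation, at means of 0.57 and 1.5 FPKM, and 0 were lower. MAT2B, a regulatory subunit of the enzyme that makes S-adenosylmethionine, and ACSS2, which makes acetyl-CoA from acetate, led this list at 135 and 60.0 FPKM. MAT2B ranged from 71.5 FPKM in BCB-positive oocyte 2 to 242 FPKM in BCB-positive oocyte 3.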
